A study of Sus scrofa with 12 samples.

Results

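Of 12 muscle RNA-seq libraries from pigs (Sus scrofa), 6 held transcripts of the liver and 6 held few or none. The sides were chosen by the level of ALB, the gene of serum albumin, which hepatocytes make in bulk and muscle fibres do not. A library counted as having liver transcripts when ALB was above 10 CPM, the count scaled to a table total of 1e6. The lowest library on the upper side had 25.6 CPM of ALB and the highest on the lower side had 2.49 CPM. The question taken up here is which muscle transcripts, beyond those of the liver, differed between the 2 sides once drip was a term in the fit.

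The study compared pigs with high and with low drip, the water that meat loses after slaughter, as part of work on chromosomal regions that carry loci for water holding capacity. Each level held 6 animals, 3 females and 3 males, aged 167 to 189 days, with 1 library of snap frozen muscle per animal. The labels do not name the muscle or the breed, and no treatment or genotype is given for any animal. Liver transcripts were present in high drip replicates 1 to 4 and in low drip replicates 5 and 6, where replicate numbers only name animals. They were near absent from low drip replicates 1 to 4 and from high drip replicates 5 and 6. In each drip group replicates 1 to 3 are female and 4 to 6 male. The 3 females with liver transcripts were thus the high drip ones, while the 3 males with them were 1 of high and 2 of low drip. In females the split and drip therefore cannot be told apart, and the fit with sex, drip and the split as terms separates them through the males.

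Albumin, transferrin, apolipoproteins and clotting factors are made by hepatocytes and secreted into the blood, so their mRNAs are among the most abundant of the liver and are scarce elsewhere. Skeletal muscle burns and stores glucose as glycogen, and the AMP-activated protein kinase (AMPK) senses its energy state. AMPK has a catalytic alpha, a scaffolding beta and a nucleotide-binding gamma subunit. PRKAG3 encodes the gamma 3 subunit, which is found mainly in fast glycolytic fibres, and mutations of it in pigs raise muscle glycogen and alter the pH and water holding of meat.

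The libraries differed in more than liver transcripts. Total counts ran from 9348488 to 12622043 on the side with liver transcripts and from 8009627 to 10149717 on the other, and within each sex the 2 sides did not overlap in depth. All 3 males with liver transcripts were 172 days old, and the other 3 were 167, 179 and 186 days old. Reads over no feature made up 24.9 to 29.3% of alignments with and 24.2 to 28.9% without liver transcripts. The part that depth and age had in the results was not tested apart from the fits given below that hold them as terms. For 3 females, low drip replicates 1 and 2 and high drip replicate 2, the whole-genome table recorded for the animal carried another animal's number. Each was assigned by the number in its name, where the 2 tables of an animal shared 737 to 745 of 770 region counts. The called muscle features are also given under the recorded assignment and without these females.

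The liver transcripts themselves, which made the split or vary with it, are described without a test. ALB had 25.6, 35.1 and 317 CPM as lowest, median and highest value on the side with liver transcripts, and 0.327, 1.14 and 2.49 CPM on the other. TF, the iron carrier transferrin, had 2.54, 6.60 and 88.3 CPM against at most 0.975 CPM. The highest value of both came from high drip replicate 2, and no other library passed 55.6 CPM of ALB. APOC3, an apolipoprotein of triglyceride-rich particles, lay at 3.23 to 26.3 CPM against at most 0.325 CPM. AHSG, the plasma protein fetuin A, lay at 1.40 to 36.6 CPM against at most 0.108 CPM. AMBP, the precursor of the alpha-1-microglobulin and bikunin proteins, had 2 counts in all 6 libraries without liver transcripts and 338 in the 6 with them.

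**Figure D1:**
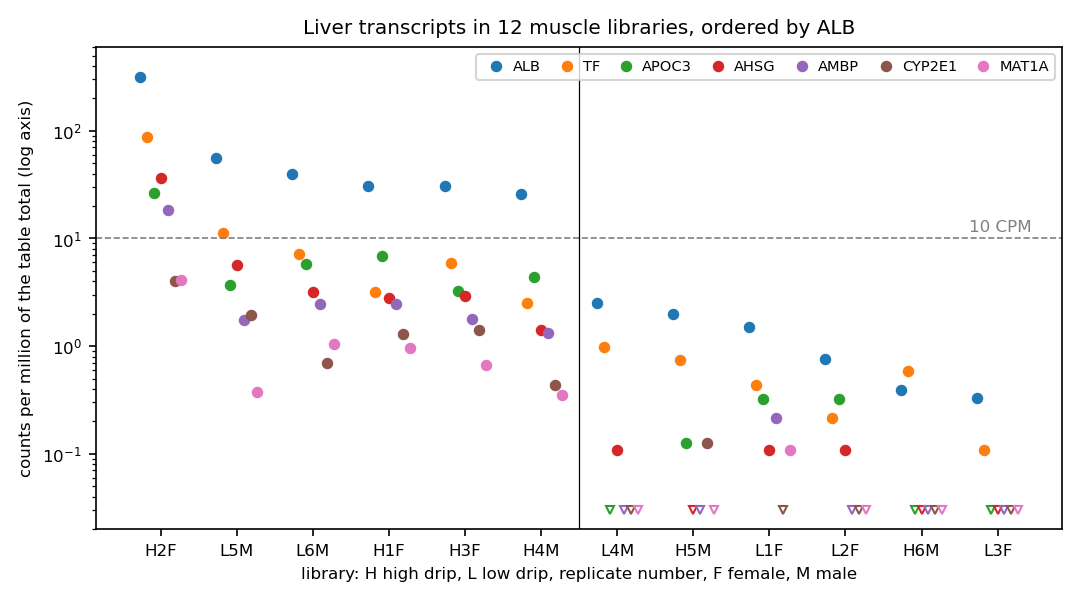
CPM over the table total (log axis) of 5 secreted (ALB, TF, APOC3, AHSG, AMBP) and 2 intracellular (CYP2E1, MAT1A) liver transcripts in the 12 libraries, ordered by ALB. Each point is 1 gene in 1 library, open triangles at the bottom are counts of 0, the dashed line is 10 CPM, and the vertical line parts the libraries with liver transcripts (left) from the others. All 7 genes were higher in each library on the left than in any on the right.

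Of 41 secreted liver genes with an identifier, 16 were higher in every library with liver transcripts than in any without. Of 41 intracellular liver genes the same held for 2: CYP2E1, a drug-metabolising cytochrome, and MAT1A, the liver form of methionine adenosyltransferase. CYP2E1 had 112 counts on one side and 1 on the other, and MAT1A 88 and 1. The counts of 16 and 2 are over the table total and include genes too low to be tested. Among tested features, with CPM scaled by TMM factors, 14 of 23 secreted and 1 of 11 intracellular genes were higher without overlap. Over all 10627 features tested, on that scale, 28 were higher without overlap (0.263%) and 16 lower (0.151%), 44 in all (0.414%). FOXA2, a transcription factor of the liver, had no count in any library. Across the 6 libraries with liver transcripts, some secreted transcripts lay in a narrow proportion to ALB: counts of FGG, a fibrinogen chain, were 8.33 to 13.0% of those of ALB, and counts of AHSG 5.46 to 11.6%. TF varied more, from 9.90 to 27.9%, as did APOC3, from 6.68 to 22.1%. Some listed genes that the libraries without liver transcripts also expressed varied far more. ITIH4, an inhibitor heavy chain, ranged from 28.2 to 1010% of the ALB count, and ASL, an enzyme of arginine synthesis, from 7.18 to 156%.

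Markers of other organs overlapped between the sides. Of the genes listed for exocrine pancreas, lung, kidney, intestine, gonad, brain, skin and heart, 0 were higher or lower in every library of one side. The summed CPM of the pancreas list was 1.51 to 5.76 with and 2.07 to 8.75 without liver transcripts, and that of the kidney list 0.664 to 1.51 with and 0.325 to 3.02 without. Among 5 red cell genes 1 was lower without overlap, and HBB, a globin chain, overlapped at 36.3 to 84.2 CPM against 19.2 to 85.6 CPM. From here on, CPM are scaled by TMM factors to the total of the tested features, except for liver markers, which stay on the scale of the table total. Both sides were muscle by their fibre genes: the 11 fast fibre genes summed to 108085 to 130951 CPM with and 96853 to 125945 CPM without liver transcripts. In such bulk tissue, fewer cells of a type and less RNA per cell cannot be told apart.

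Outside the liver genes, PRKAG3 and 4 features without a gene name were lower in libraries with liver transcripts. In the fit of all 12 libraries, sex and drip being terms, 13 of 10627 features passed an adjusted p of 0.05 (0.122%), by edgeR's quasi-likelihood F-test with Benjamini-Hochberg adjustment. These were 8 higher (0.0753%) and 5 lower (0.047%) features on the side with liver transcripts. Of the 8 higher, 6 were liver list members, ALB among them, and 2 were Ensembl genes without a symbol. All 8 were near 0 on the other side, so the split by ALB fixes or favours these calls, and nothing is read from them or from their share. The 5 lower ones were PRKAG3 and 4 features with HSMMG identifiers, for which the tables used here give no gene. Without adjustment 673 features had a p under 0.05 (6.33%), 300 higher and 373 lower. The p-values measure the spread between these animals.

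PRKAG3 was the only named muscle gene to pass. Its level was 69.4, 108 and 127 CPM (lowest, median and highest) with liver transcripts, and 119, 162 and 185 CPM without. The sides overlapped through 1 animal, low drip replicate 4 at 119 CPM, which lay below all 3 females with liver transcripts. Within each sex they did not overlap: females had 122 to 127 CPM with and 148 to 184 CPM without, and males 69.4 to 94.4 CPM with and 119 to 185 CPM without. The log2 difference, with minus without, was -0.82 ± 0.09 (standard error of the fit, n = 6 and 6, edgeR adjusted p = 0.00479).

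The drip and split coefficients of PRKAG3 had opposite signs in that fit. Its drip coefficient, high minus low, was 0.42 ± 0.09 on the log2 scale, and it did not pass (edgeR adjusted p = 0.700). Its sex coefficient, male minus female, was -0.40 ± 0.09 (edgeR adjusted p = 0.562). No feature passed for drip (0 of 10627 by edgeR, 471 with an unadjusted p under 0.05, 0 by limma voom and 12 by DESeq2). With the split alone and no other term, the PRKAG3 difference was -0.65 and was not called (edgeR adjusted p = 0.570), and with drip but without sex as a term it was -0.82 and was not called either (edgeR adjusted p = 0.0711).

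Of the 4 lower HSMMG features, HSMMG187 was the most counted. It had 59.9, 95.2 and 128 CPM with liver transcripts and 99.6, 162 and 207 CPM without, a log2 difference of -0.93 ± 0.11 (edgeR adjusted p = 0.00479). HSMMG175 had 5.65, 27.2 and 31.7 CPM against 22.04, 54.9 and 69.4 CPM (-1.62 ± 0.21, edgeR adjusted p = 0.00751). Low drip replicates 5 and 6, the 2 low drip males with liver transcripts, were the lowest libraries for both, as for PRKAG3, and low drip replicate 4 was the lowest of the other side for both. HSMMG174 had 1.79 to 8.57 CPM against 6.33 to 13.9 CPM (-1.39 ± 0.21, edgeR adjusted p = 0.0164). HSMMG176 had 0.269 to 2.68 CPM against 2.55 to 6.99 CPM (-2.03 ± 0.31, edgeR adjusted p = 0.0175). In these 2 as well the sides overlapped, and the 2 low drip males with liver transcripts were lowest.

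**Figure D2:**
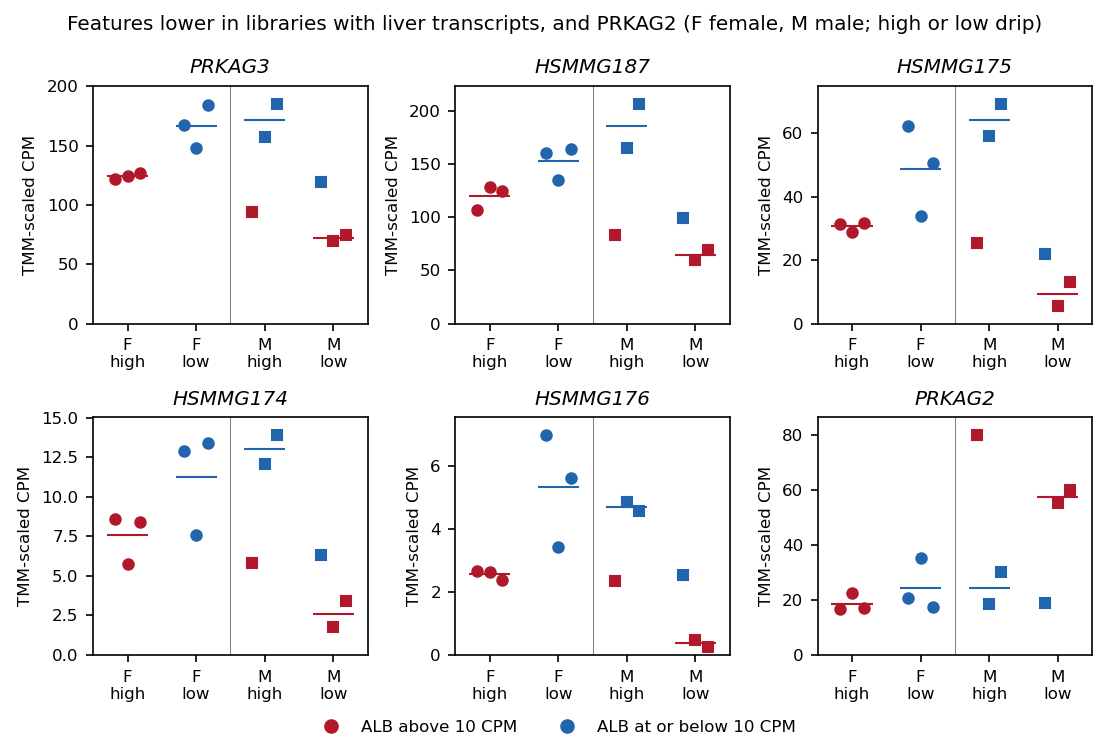
TMM-scaled CPM of the 5 features that were lower in libraries with liver transcripts, and of PRKAG2, in each animal by sex and drip. Red points are libraries with ALB above 10 CPM and blue points the others, circles are females and squares males, and lines are means where a group of 1 colour has more than 1 animal. For PRKAG3, red points lie below blue ones within each sex, at 122 to 127 against 148 to 184 CPM in females and 69.4 to 94.4 against 119 to 185 CPM in males.

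The direction of these 5 features held in all 28 alternative fits, and the calls did not. All 5 lost their call under the recorded assignment of the 3 females, which exchanges the drip labels of 2 of them (PRKAG3 -0.69, edgeR adjusted p = 0.0567), with log2 of the total count as a further term (-0.90, adjusted p = 0.0654), without high drip replicate 6 (-0.76, adjusted p = 0.0532), and in males alone (-0.79, adjusted p = 0.0702). With every library thinned to the smallest total, 4 of the 5 stayed called. Age as a further term left all 5 called (PRKAG3 -0.82, edgeR adjusted p = 0.00448). In the 9 animals without these females 4 lower features were called, and PRKAG3 differed by -0.86 (edgeR adjusted p = 0.0109).

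The region tables, which count the same libraries over the regions with loci for water holding capacity, gave the same 5 lower features. There 6 of 485 features passed (1.24%), the other being CYP2E1. That liver list member was near absent without liver transcripts, so the split by ALB favours its call. Nothing is read from that call or from the share. PRKAG3 made up 6355 ± 1445 CPM of the region counts with and 9531 ± 1459 CPM without liver transcripts (mean ± SD, n = 6 and 6; log2 difference -0.73 ± 0.09, edgeR adjusted p = 0.00126). These values come from the same libraries and are not a second measurement.

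The 4 called HSMMG features carry numbers close to each other, so the features around them were examined after their values were seen. From HSMMG160 to HSMMG187 every tested feature had a negative difference, a run bounded by HSMMG159 at 0.15 and HSMMG192 at 0.16. The sign thus set the bounds of the run, and HSMMG154 to HSMMG158, just before them, were negative too, at -0.37 to -0.88. The run comprises 28 identifiers, of which 21 had enough counts to be tested and 4 passed. Differences ran from -0.03 for HSMMG184 to -2.03 for HSMMG176, with a median of -0.84. HSMMG182 was lower in every library with liver transcripts than in any without, at 0.490 ± 0.171 against 1.09 ± 0.191 CPM (mean ± SD, n = 6 and 6), but was not called (-1.25 ± 0.32, edgeR adjusted p = 0.420). Over all 276 HSMMG features tested, 183 had negative differences and the median was -0.15. Outside the run 162 of 255 were negative, with a median of -0.12. Over all 10627 features 50.5% were negative and the median was -0.0023. What a number in these identifiers says about position is not given in the sources used here.

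**Figure D3:**
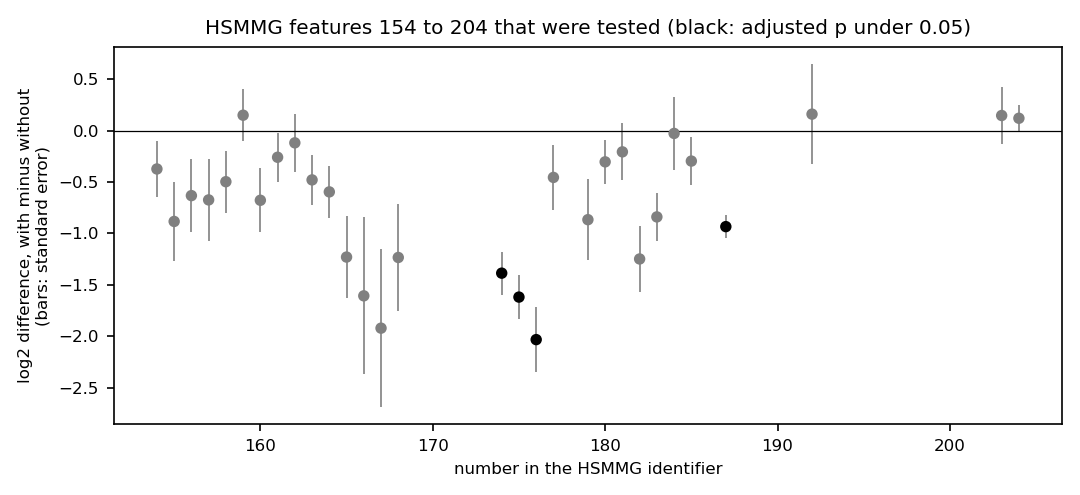
Log2 difference, with minus without liver transcripts, of the tested features among HSMMG154 to HSMMG204 (y axis, bars are standard errors of the fit), by the number in the identifier (x axis). Black points passed an adjusted p of 0.05 and grey points did not. The 4 black points lie from -0.93 to -2.03, among 21 points below 0 that are bounded by HSMMG159 and HSMMG192 above it.

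The 2 higher features without a symbol were near 0 without liver transcripts and are described without a test. ENSSSCG00000002483 had 1.62, 2.32 and 15.02 CPM with liver transcripts and at most 0.306 CPM without. ENSSSCG00000002623 had 0.545, 1.07 and 4.20 CPM against 1 count in 1 library. High drip replicate 2, the library with the most ALB, was highest for both, and the sides did not overlap. Both reached the count needed for the fit only through the side where they were high, so their calls support nothing, and no fold is given.

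For PRKAG3 no relation to the amount of ALB passed in those 6 libraries. Pearson r was 0.21 (exact permutation p = 0.911, 0.911 adjusted over the 7 features compared) and Spearman rho -0.20 (exact p = 0.714, 0.999 adjusted), and r was -0.47 without the 2 libraries farthest from the median of ALB. The 6 libraries pool 3 females at 122 to 127 CPM of PRKAG3 with 3 males at 69.4 to 94.4 CPM. Sex was not a term, so these coefficients also hold the gap between the sexes. High drip replicate 2, with the highest ALB at 317 CPM over the table total, had 125 CPM of PRKAG3, the middle value of the 3 females. With 6 libraries a weak relation was not detectable.

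Other AMPK subunits did not pass. Of 12 tested members of the AMPK list, 1 passed, PRKAG3, and the median difference was 0.04 against -0.0023 over all features. PRKAG2, the gamma 2 subunit, had 16.6, 38.8 and 80.0 CPM with and 17.4, 19.7 and 35.4 CPM without liver transcripts (0.76 ± 0.33, edgeR adjusted p = 0.764). Its high values came only from the 3 males with liver transcripts, at 55.2 to 80.0 CPM, while the other 9 libraries had 16.6 to 35.4 CPM. PRKAG1, the widely expressed gamma 1 subunit, differed by -0.08 ± 0.09, PRKAB1 by -0.07 ± 0.13 and PRKAB2, the beta 2 subunit of muscle, by 0.11 ± 0.11 (edgeR adjusted p from 0.887 to 0.944). PRKAA1, PRKAA2 and PPARGC1A had no identifier with that symbol. Of 11 AMPK target genes tested 0 passed, and TBC1D1, which AMPK phosphorylates in glucose uptake, differed by 0.49 ± 0.28 (edgeR adjusted p = 0.826).

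Genes of glycogen and glucose use were called in neither direction. Of 20 glycogen genes tested 0 passed, 3 had an unadjusted p under 0.05 and the median was 0.03. PPP1R3B, which brings a phosphatase to glycogen, had 48.2, 99.2 and 144 CPM with and 75.7, 120 and 220 CPM without liver transcripts (-0.80 ± 0.26, edgeR adjusted p = 0.648). The sexes leaned in opposite ways, at 130 to 144 against 75.7 to 132 CPM in females and 48.2 to 68.8 against 84.7 to 220 CPM in males. PYGM, the muscle phosphorylase, had 18169 to 26692 CPM with and 15923 to 27408 CPM without liver transcripts (0.04 ± 0.15), and GYS1, the muscle glycogen synthase, differed by -0.13 ± 0.15. PHKG1, a kinase that activates phosphorylase, and PPP1R3A, a glycogen-targeting subunit, differed by -0.02 ± 0.13 and -0.06 ± 0.17. The signs of PYGM, GYS1, PHKG1 and PPP1R3A changed in some alternatives. Of 19 glycolysis genes tested 0 passed, with HK2, a hexokinase, at 0.89 ± 0.42 and PFKFB2, which makes an activator of phosphofructokinase, at 0.71 ± 0.27 (edgeR adjusted p = 0.791 and 0.746).

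Fibre type, calcium handling and costamere genes did not pass either. Of 11 fast fibre genes tested 0 passed, and 1 higher and 2 lower had an unadjusted p under 0.05. PVALB, the calcium buffer parvalbumin of fast fibres, had 25.1, 184 and 296 CPM with and 43.6, 59.1 and 130 CPM without liver transcripts (1.25 ± 0.43, edgeR adjusted p = 0.703). MYLK2, the myosin light chain kinase of skeletal muscle, had 635, 757 and 830 CPM against 720, 962 and 1189 CPM (-0.47 ± 0.12, edgeR adjusted p = 0.418), and it passed where libraries were scaled by their totals alone (-0.56, adjusted p = 0.0430). CACNG1, a subunit of the muscle calcium channel, differed by -0.28 ± 0.11 and MCU, the pore of the mitochondrial calcium uniporter, by 0.27 ± 0.12 (edgeR adjusted p = 0.752 and 0.767). SMDT1, a regulator of that uniporter, differed by 0.05 ± 0.58, with 0.182 to 51.9 CPM among the libraries with liver transcripts, and its sign changed in some alternatives. FLNC, the filamin of muscle, had a median of 10803 CPM with and 6858 CPM without liver transcripts (0.64 ± 0.24, edgeR adjusted p = 0.735). Males had 10623 to 12410 against 4194 to 6384 CPM of FLNC, and females 7023 to 12012 against 7332 to 13080 CPM. XIRP2, an actin-binding protein, differed by 0.52 ± 0.23 (edgeR adjusted p = 0.767).

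Energy, stress hormone and lipid genes showed no call. Of 36 nuclear oxidative phosphorylation genes and 28 genes of the citrate cycle and fatty acid oxidation 0 passed, with medians of 0.02 and 0.03. ACADM, an acyl-CoA dehydrogenase, differed by 0.42 ± 0.15 (edgeR adjusted p = 0.732). Of 16 genes of the fasting and glucocorticoid response 0 passed. NR3C1, the glucocorticoid receptor, had medians of 60.1 and 58.4 CPM but reached 123 CPM in 1 library with liver transcripts (0.44 ± 0.13, edgeR adjusted p = 0.635). FKBP5, a target of that receptor, differed by -0.10 ± 0.25, SGK1 by -0.37 ± 0.16 and PDK4, which curbs glucose oxidation, by 0.58 ± 0.60 (edgeR adjusted p from 0.752 to 0.959). PLIN1, a coat protein of fat droplets, differed by 0.13 ± 0.40, and the signs of FKBP5 and PLIN1 changed in some alternatives.

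Some lists leaned to one side without a member passing. Of 17 immediate early genes, which respond within minutes to stress or contraction, 16 had positive differences with a median of 0.38. Of 17 heat shock genes 15 were positive with a median of 0.17, of 20 cytosolic ribosome genes 16 with a median of 0.09, and of 24 extracellular matrix genes 18 with a median of 0.11. Over all features, 5257 of 10627 were positive with a median of -0.0023. Members with an unadjusted p under 0.05 were 2 (11.8%), 3 (17.6%), 0 and 2 (8.33%) in those lists, beside 6.33% of all features. HSPB8, a small heat shock protein, had 1909, 2393 and 2755 CPM with and 1472, 1796 and 2475 CPM without liver transcripts (0.47 ± 0.14, edgeR adjusted p = 0.606). FN1, fibronectin, differed by 0.36 ± 0.14 and LAMC1, a laminin chain, by 0.33 ± 0.13 (edgeR adjusted p = 0.732 and 0.752).

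Markers of cells other than fibres did not pass. Of 9 lymphocyte genes 9 were positive, with a median of 0.69, and their summed level was 8.21 to 27.6 CPM with and 6.22 to 13.4 CPM without liver transcripts. Of 8 macrophage genes 7 were positive with a median of 0.19. Of 6 satellite cell and myoblast genes 5 were negative with a median of -0.33, and they summed to 45.0 to 85.9 CPM against 64.4 to 111 CPM. In each of these lists the summed levels of the 2 sides overlapped, and their part in the other results was not tested.

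**Figure D4:**
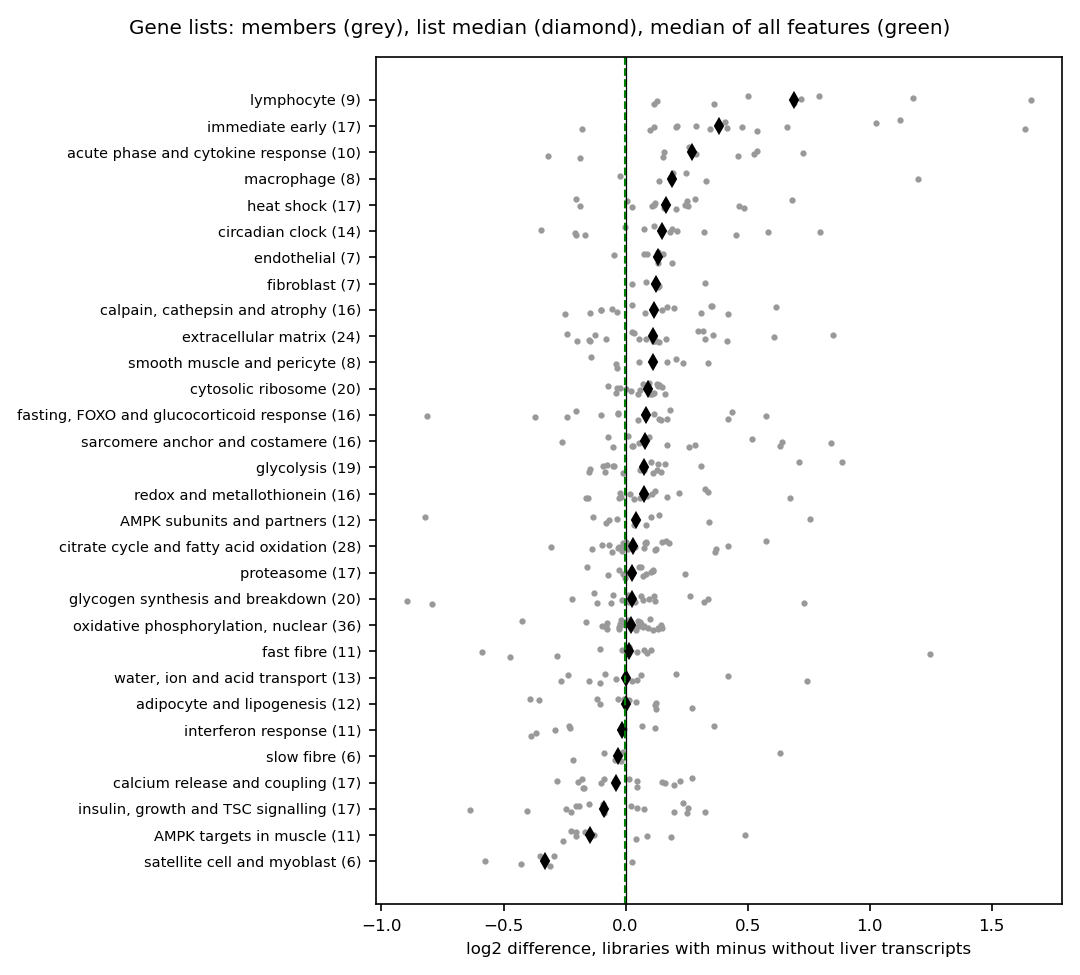
Log2 difference, with minus without liver transcripts, of the members (grey points) of each muscle pathway or cell type list with at least 5 tested members, whose number is in brackets. Diamonds are list medians and the dashed line is the median over all features tested, -0.0023. The highest median is that of the lymphocyte list at 0.69 and the lowest that of the satellite cell list at -0.33, and PRKAG3 at -0.82 is the 1 member that passed the test.

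The genes with a symbol of smallest p outside the called ones did not pass. USP28, a deubiquitinase, had 476, 580 and 772 CPM with and 322, 381 and 568 CPM without liver transcripts (0.69 ± 0.13, edgeR adjusted p = 0.0838), and it passed with DESeq2 (0.70, adjusted p = 0.000419). CRP, an acute phase protein of the liver that was in neither liver list, had 0.54 to 3.74 CPM with and at most 0.352 CPM without. MEOX1, a homeobox factor of early muscle formation, and PABPC1, which binds the tails of mRNAs, were higher in every library with liver transcripts than in any without. MEOX1 had 2.70 to 4.71 against 1.53 to 2.70 CPM (0.80 ± 0.21) and PABPC1 126 to 155 against 85.3 to 119 CPM (0.41 ± 0.10; edgeR adjusted p = 0.420 for both). The sides of MEOX1 all but met, at 2.7006 against 2.6985 CPM. The other higher genes of smallest p were PLCE1, DCLRE1B, ANKRD37, TRAFD1, PDK1 and LRRC2, with differences from 0.41 to 1.33 and edgeR adjusted p from 0.229 to 0.420.

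On the lower side, CIAO3, SLC2A11 and LRRC14 did not overlap between the sides and were not called. CIAO3, a factor for building iron-sulphur proteins, had 15.5, 19.0 and 21.3 CPM with and 21.8, 24.4 and 31.3 CPM without liver transcripts (-0.52 ± 0.12, edgeR adjusted p = 0.315). SLC2A11, a sugar transporter, had 2.92 to 5.60 against 5.85 to 7.35 CPM (-0.74 ± 0.17), and LRRC14 3.23 to 5.60 against 5.61 to 7.50 CPM (-0.67 ± 0.16; edgeR adjusted p = 0.333 and 0.361). The sides of LRRC14 all but met. RABGGTA, TMX2, SLC38A3, SMTNL2 and SEMA6C had differences from -0.40 to -0.50, each with an edgeR adjusted p of 0.420.

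Among the 6 males, where each side held both drip levels, more features were called. With drip as a term, 50 of 10660 features passed (0.469%), all higher in the 3 males with liver transcripts, and 44 of them were outside the liver lists. Among the 44, ENSSSCG00000017267 and ENSSSCG00000002483 were near 0 without liver transcripts, with at most 0.102 and 0.306 CPM in males. The split by ALB favours such calls, so nothing is read from them. ENSSSCG00000002749 was higher without overlap in both sexes, at 10.6 to 19.5 against 2.93 to 5.22 CPM in males. The 44 had positive differences in the fit of all 12 libraries too, where 1 passed, ENSSSCG00000002483. That fit separates the split from drip through these same males, so the shared sign is no further support. In females, where the split equals drip, 32 of the 44 had a lower mean with than without liver transcripts and 12 a higher one. Over all features 49.3% had a higher mean in females with liver transcripts. All 44 were without overlap in the 3 males against 3, as were 1684 of the 10660 features tested (15.8%). Genes from the 28 with a symbol were picked for the text after their values were seen.

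Transcription factors of the immediate response stood among them. ATF3, induced by cellular stress, had 884 to 1126 CPM in the 3 males with and 67.5 to 350 CPM in the 3 without liver transcripts (2.84 ± 0.40, edgeR adjusted p = 0.0335). In females it had 220 to 660 CPM against 386 to 502 CPM, with the sides overlapping. NR4A3, a nuclear receptor induced by contraction, had 126 to 352 CPM against 9.69 to 31.2 CPM in males (3.47 ± 0.57, adjusted p = 0.0488) and 7.39 to 30.5 against 17.6 to 37.7 CPM in females. The males with liver transcripts were thus above every female for both genes. MAFF, a small partner of stress-response factors, had 77.0 to 136 CPM against 9.18 to 23.5 CPM in males (2.997 ± 0.244, adjusted p = 0.00881), and CSRNP1 43.4 to 68.0 against 4.08 to 15.4 CPM (2.87 ± 0.46, adjusted p = 0.0467).

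Genes with other roles were among those called in males. PRKAG2 differed by 1.67 ± 0.20 (edgeR adjusted p = 0.0221), against -0.79 for PRKAG3, which was not called there. DNAJB4, a co-chaperone, had 342 to 487 CPM against 109 to 229 CPM (1.48 ± 0.19) and HSF2, a heat shock factor, 89.6 to 134 against 42.7 to 54.1 CPM (1.20 ± 0.20; edgeR adjusted p = 0.0221 and 0.0473). THBS1, the matrix protein thrombospondin 1, had 79.2 to 125 CPM against 29.1 to 31.3 CPM (1.61 ± 0.20, adjusted p = 0.0221). KLHL40, which stabilises thin filament proteins, had 481 to 574 CPM against 188 to 280 CPM (1.21 ± 0.18), and HHATL 467 to 563 against 240 to 294 CPM (0.98 ± 0.14; adjusted p = 0.0373 for both). SLC19A2, a thiamine transporter, HBEGF, a growth factor, TNFRSF12A, a receptor induced by injury, and SRXN1, a redox enzyme, were also among the 44.

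**Figure D5:**
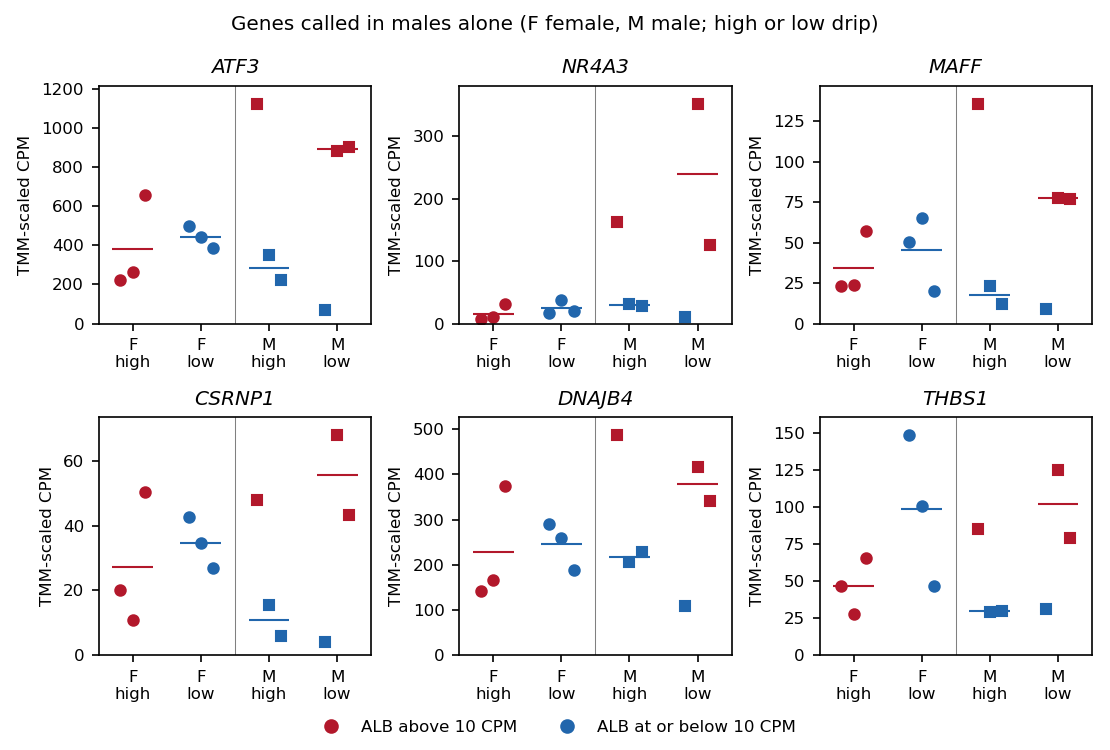
TMM-scaled CPM of 6 genes called in the fit of males alone, in each animal by sex and drip. Red points are libraries with ALB above 10 CPM and blue points the others, circles are females and squares males, and lines are means where a group of 1 colour has more than 1 animal. The 3 red males lie above the 3 blue males in every panel, as for ATF3 at 884 to 1126 against 67.5 to 350 CPM, while red and blue females overlap.

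The whole immediate early list leaned the same way in males. All 17 members had positive differences with a median of 1.13, 12 had an unadjusted p under 0.05 (70.6%, against 9.72% of all features) and 2 passed. In females, where the split equals drip, 3 of the 17 had a higher mean with than without liver transcripts, and the median log2 ratio of means was -0.81. FOS, an early responder to stimuli, had 143 to 576 CPM against 47.7 to 81.4 CPM in males and 30.8 to 330 against 173 to 812 CPM in females. Over all features 48.2% were positive in males and 49.3% in females. Of 17 heat shock genes 13 were positive in males (2 passed) and of 24 extracellular matrix genes 22 (0 passed), against 10 and 2 with a higher mean in females. Of 14 circadian clock genes 9 were positive in males, 8 had an unadjusted p under 0.05 (57.1%) and 0 passed, and 5 had a higher mean in females.

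The marker lists of other cells did not all have these signs. Of 8 macrophage genes 5 were positive in males, against 7 with a higher mean in females, and of 7 lymphocyte genes 5 against 7. Of 6 satellite cell and myoblast genes it was 2 against 2, and of 12 adipocyte and lipogenesis genes 6 against 3. The lists of fibroblasts, smooth muscle and endothelium had the signs of the immediate early list. Of 7 fibroblast genes 7 were positive in males, against 1 with a higher mean in females, of 8 smooth muscle and pericyte genes 7 against 0, and of 7 endothelial genes 7 against 3, and 0 of them passed in males. Scaled by TMM factors, the smooth muscle and pericyte genes summed to 6443 to 8152 CPM in males with liver transcripts. In males without them the sum was 5809 to 6369 CPM, which did not overlap. Over the table total the same sums were 6349 to 8007 CPM against 6114 to 6763 CPM and overlapped. The fibroblast genes, scaled by TMM factors, summed to 4043 to 5890 CPM against 3243 to 4397 CPM and overlapped. The part of these cells in the genes called in males was not tested.

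Whether the sexes differed was tested with the product of sex and drip, with the split as a further term. In that fit a different drip effect in males and a different effect of the split cannot be told apart. Of 10627 features 1 passed, ENSSSCG00000025409, a gene without a symbol (3.93 ± 0.50, edgeR adjusted p = 0.0350). It had 90.7 to 231 CPM with and 27.8 to 85.6 CPM without liver transcripts in males, and 49.5 to 56.4 against 64.1 to 139 CPM in females. Within females the order of the sides was thus the reverse of that in males, without overlap in either. Of the 17 immediate early genes 12 had an unadjusted p under 0.05 for the product and 0 passed, beside 550 of all 10627 features without adjustment.

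The calls in males moved with single animals and with depth. Leaving out each of the 6 males in turn left 8 (without high drip replicate 4) to 62 calls (without low drip replicate 6). The other 4 gave 16 to 21, and all 50 features kept a positive difference each time. The calls were in part other features. Of the 50, 4 stayed called without high drip replicate 4, 39 without low drip replicate 6, and 9 to 14 without each of the others. With log2 of the total count as a term 5 features passed, with library totals alone 16, with limma voom 50 and with every library thinned to the smallest total 55. In that order, 2, 16, 47 and 48 of the 50 stayed called. The immediate early median was between 1.00 and 1.50 in these fits. A fit of the males with age as a term was not run.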

How the data were processed

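RNA was sequenced from muscle of 12 pigs, with 2 deposited count tables per animal: a whole-genome table of 20741 features and a region table of 770. The deposited values are raw counts that the authors made with TopHat2 2.0.3, Bowtie 0.12.7.0 and HTSeq on Sscrofa10.2, per the submitters' processing notes. The annotation release and the strand setting are not given in the sources used here, so overlapping and antisense genes cannot be told apart. The 5 closing HTSeq lines stayed out of totals and tests, and reads over no feature were 24.2 to 29.3% of alignments. Symbols came from a gene name table and covered 10349 of 20300 Ensembl identifiers.

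Libraries were divided at 10 CPM of ALB, and 8009627 to 12622043 counts per library set the precision. The split was tested with edgeR 4.0.16 (TMM factors, filterByExpr, quasi-likelihood F-test, two-sided, R 4.3.3) with sex and drip as terms and Benjamini-Hochberg adjustment at 0.05. The drip coefficient of that fit, the region tables, the males alone and the product of sex and drip were tested likewise. Permutation tests used scipy 1.17.1. Scripts were tested on simulated data.

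The text names every feature outside the liver lists past the threshold, the 10 higher and 10 lower symbols of smallest p, the 2 members of smallest p of each pathway list shown, and a fixed set of liver, AMPK, glycogen and marker genes. One gene that this rule names is not reported here. Members and all 43 lists were chosen with earlier results of these data known. Alternatives were DESeq2 1.42.0, limma 3.58.1 (voom), other scalings, no filter, other terms, other samples and each animal left out. The log2 total count term, the thinned counts and the alternatives for males were chosen after seeing the data. No sequences are shown.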

Additional observations from a re-analysis of the deposited data

Results flagged for a closer look

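In 178 groups of 6 libraries compared by Dixon's criterion, 23 had a library far from the others (12.9%), and 10 of these were high drip replicate 2. Independent normal values would give about 1 in 20. These groups share libraries and some hold 0 in 5 of 6, so the share is not read against that rate. That library stood above the other 5 with liver transcripts at 317 CPM of ALB (next 55.6), 88.3 of TF, 26.3 of APOC3, 36.6 of AHSG, 18.5 of AMBP and 8.71 of FGB, all over the table total. It did so too at 15.02 CPM of ENSSSCG00000002483, 4.20 of ENSSSCG00000002623 and 3.74 of CRP, and it stood below them at 54.9 CPM of MCU. Without it the whole-genome fit called 19 features, and PRKAG3 differed by -0.82 (edgeR adjusted p = 0.00282).

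Other libraries with liver transcripts stood apart for single values. High drip replicate 1 had 17.1 CPM of PRKAB1, 784 CPM of PDK4 (the lowest) and a 0.321% share of HSMMG counts. Low drip replicate 6 had 159 CPM of FKBP5, and high drip replicate 4 had 62.7 CPM of SRXN1, one of the genes called in males.

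On the side without liver transcripts, low drip replicate 1 had 0.216 CPM of AMBP and 0.109 CPM of ENSSSCG00000002623, with 0 in the other 5, and 874 CPM of HHATL. High drip replicate 5 had 0.125 CPM of CYP2E1, with 0 in the other 5 (AMBP and CYP2E1 over the table total). High drip replicate 6 had 3.38 CPM of PFKFB2 and 30.9 CPM of PIK3CA, low drip replicate 3 had 43.8 CPM of HK2 and low drip replicate 2 had 38.7 CPM of SLC19A2.

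ENSSSCG00000025409 was called for the product of sex and drip, at 3.93 ± 0.50 on the log2 scale (edgeR adjusted p = 0.0350). In that fit a different drip effect in males and a different effect of the split cannot be told apart.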

How the results depend on the processing

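The 13 whole-genome calls became 31 with no filter on low counts, 22 with DESeq2, 7 with limma voom, 5 without sex as a term, 7 with the split alone, 0 with the product of sex and drip, 29 with log2 ALB CPM in place of the split, 50 in males alone, 28 in the 9 animals without a conflicting record and 0 with log2 of the total count as a term. Leaving out each animal gave 0 (without high drip replicate 6) to 19 calls (without high drip replicate 2), with 6 each without low drip replicate 3, low drip replicate 5 and high drip replicate 5. The 6 region calls became 11 with DESeq2, 0 with the split alone, 2 with the product and 2 with the recorded drip labels, and 6 to 8 with an animal left out. The 0 drip calls became 12 with DESeq2 and stayed 0 with each animal left out. The 1 called muscle pathway member became 2 with library totals alone, 0 without sex, 0 with the split alone, 0 with the product, 7 in males alone, 2 in the 9 animals, 0 with the recorded drip labels, 0 with the total count term, and 0 to 1 with an animal left out. The 50 calls in males became 140 with DESeq2, 16 with library totals alone, 126 with no filter and 5 with the total count term, and 8 to 62 with an animal left out. Of the 50 features themselves, 2 stayed called with the total count term and 4 to 39 with an animal left out. Pearson r of PRKAG3 with ALB went from 0.21 to -0.47 without the 2 farthest libraries. The cause of these changes was not tested. Over 28 alternatives each, PRKAG3, HSMMG187 and HSMMG175 were called in 21, HSMMG174 in 18 and HSMMG176 in 14.

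Some genes not called in the fit of all 12 libraries changed sign under alternatives, by these log2 differences, among them ENSSSCG00000025409, which was called in males and for the product. With library totals alone PYGM was -0.0500 and SMDT1 -0.0455, and with limma voom SMDT1 was -0.353. With the split alone PHKG1 was 0.107, FOS -0.368 and PLIN1 -0.000255. With age as a term GYS1 was 0.0674 and PLIN1 -0.119. With the product PRKAB2 was -0.0438, HBB -0.162 and SMDT1 -1.40, and in males alone PRKAB2 was -0.0420, HBB -0.160 and SMDT1 -1.37. With log2 ALB PHKG1 was 0.00769 and SMDT1 -0.00227. In the 9 animals PRKAB1 was 0.0666, PYGM -0.0371, PHKG1 0.0232, FKBP5 0.0521, PLIN1 -0.0206 and SMDT1 -0.0778. With the recorded drip labels PHKG1 was 0.0984 and PLIN1 -0.0993. With the total count term PRKAB1 was 0.0357, GYS1 0.101, PHKG1 0.0855, PLIN1 -1.13 and ENSSSCG00000025409 -0.128. With an animal left out the ranges were PYGM -0.105 to 0.121, PHKG1 -0.133 to 0.0479, SMDT1 -0.166 to 0.453, FKBP5 -0.435 to 0.126, GYS1 -0.252 to 0.0225, PLIN1 -0.281 to 0.535, PPP1R3A -0.196 to 0.0367 and ENSSSCG00000025409 -0.0557 to 0.407.

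Depth limits transcripts under a few counts per library, where a count of 0 allows up to 0.238 to 0.375 CPM (3 counts, counting error only).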
